A study of Mus musculus with 6 samples.

Results

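The Slc25 family, the mitochondrial solute carriers, was followed in ventricles of E12.5 mouse embryos with and without Vhl. The members were the genes whose mouse symbol begins with Slc25a, apart from 3 (Slc25a11, Slc25a12 and Slc25a13) that the choice of members left out. Of 45 such genes in the GENCODE M21 annotation, 36 of the 13843 genes in the deposited table were members. The other 9 (Slc25a2, Slc25a18, Slc25a21, Slc25a31, Slc25a34, Slc25a41, Slc25a48, Slc25a54 and the pseudogene Slc25a5-ps) were not analysed here. All 36 are retained in every count below unless a filter is named.

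Polyadenylated RNA of single ventricles, dissected free of the atria and the valve region, was sequenced on a C57BL/6 background. The 3 control embryos carried Vhl(flox/flox) with Nkx2.5(+/+), and the 3 embryos labelled knockout carried Vhl(flox/flox) with Nkx2.5(Cre/+), so every animal had floxed Vhl. Cre from the Nkx2-5 locus acts in heart muscle progenitors and their descendants, and it leaves Vhl intact in ventricular cells that never made it. As no embryos with Cre and unfloxed Vhl were analysed here, loss of Vhl and presence of the Cre allele cannot be told apart. Litters 1 and 2 each gave a control and a knockout of the same number, whereas control 3 was from litter 3 and the library labelled knockout 3 from litter 4.

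Libraries held 9067805 to 12592902 reads over the genes of the table, and single members held 7 to 13784 reads in a library. Values are reads scaled to a common library size, as deposited. Vhl encodes the substrate-binding part of a ubiquitin ligase, which sends hypoxia-inducible factors (HIF) to the proteasome. It stood at 33.7, 36.3 and 38.6 in controls 1 to 3 and at 11.1 and 10.3 in knockout 1 and knockout 2, called the knockout pair from here on. The library labelled knockout 3 had 34.5, which went against its label, and it is shown apart throughout. Nkx2-5, whose locus carries Cre, was at 75.7, 79.2 and 68.6 in controls 1 to 3 and at 51.6 and 66.7 in the knockout pair. In the library labelled knockout 3 it was at 80.3. The part of the Cre allele in these values was not tested. The 10 cardiomyocyte markers summed to 34197 to 40913 in controls and to 39433 and 35414 in the knockout pair, so all the libraries carried the transcripts of heart muscle. Of these 10 markers 0 passed the test. In both of the knockout pair 3 (Tnni1, Myl2 and Ryr2) lay below every control and 0 above, where 17% and 18.1% of all genes did so. Markers of other cells were present too, and the sums of the 6 endothelial, the 6 epicardial and the 6 smooth muscle and pericyte markers did not overlap between the controls and knockouts 1 and 2. They ran from 1079 to 1111, from 249.7 to 336 and from 1089 to 1422 in controls. In knockouts 1 and 2 they were 1248 and 1267, 436 and 406, and 2223 and 2270. Of the single markers, 5 of 6, 4 of 6 and 2 of 6 lay above every control in both, where 18.1% of all genes did so. In the endothelial list only Emcn passed the test, and in the epicardial list only Wt1. In the third list the markers above every control were Acta2 and Tagln, contractile genes that passed the test. Myh11 (log2 fold change 0.01), Rgs5 (-0.10), Cspg4 (0.15) and Pdgfrb (0.38) did not pass. Between littermates (described below), 1 endothelial, 4 epicardial and 3 smooth muscle and pericyte markers passed as higher, Pdgfrb among them, beside 4.92% of all genes. There 1 cardiomyocyte marker, Ryr2, passed as lower, beside 3.21% of all genes. The 4 macrophage markers measured summed to 13.8 to 28.5 in controls and to 18.1 and 17.1 in the knockout pair. No marker measured in any of these lists was at 0 in any library. The part of these cells in the carrier values was not tested. In bulk tissue, fewer cells of a type and less RNA per cell cannot be told apart.

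Most carriers sit in the inner mitochondrial membrane, where each exchanges or imports a narrow set of solutes that the membrane would otherwise hold back. They share a fold of 3 repeated domains, each with a pair of helices across the membrane. Heart muscle depends on them because ATP made in the matrix leaves through the ADP/ATP carriers, while phosphate, fatty acyl groups, amino acids, cofactors and iron come in through others. HIF is known to turn metabolism from respiration towards glycolysis, which is the setting in which the title of the series places the comparison.

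Few carriers passed the test between the genotypes, as was so for genes as a whole, and a carrier that did not pass may still differ. Knockouts 1 and 2 against the 3 controls gave 0 carriers higher and 2 lower out of 36, Slc25a23 among them (limma, Benjamini-Hochberg adjusted p under 0.05 over all genes). Of all genes tested, 3.01% were higher and 1.24% lower. The count of lower carriers was 0 without control 2, control 3 or knockout 1, 1 without control 1 or knockout 2, and 0 with limma without trend. At the same adjusted threshold edgeR called 0 carriers higher and 2 lower, and DESeq2 called 0 higher and 1 lower. At an unadjusted p under 0.05, limma had 1 carrier higher and 4 lower, beside 1349 and 1115 of all 13843 genes. The median log2 fold change of the carriers was -0.05, beside -0.01 over all genes. It was below 0 for 22 carriers and above 0 for 14, beside 7173 and 6670 of all genes. The fold changes ran from -0.55 to 0.54 on the log2(value + 1) scale, and 25 of 36 lay within 0.25 of 0, against 73.3% of all genes. In the littermate comparison, which used litters 1 and 2 and took litter as a block, 1 carrier was higher (Slc25a1) and 3 were lower (Slc25a23 and Slc25a42 among them), where 4.92% and 3.21% of all genes were called. All 4 libraries of that comparison are also in the first, and it has 1 residual degree of freedom, which makes its p-values lean on the spread pooled over genes. With all 6 libraries as labelled, limma called 0 carriers and 0 of all genes. At an unadjusted p under 0.05 it had 0 carriers, beside 859 of all 13843 genes. On that set edgeR and DESeq2 were not run.

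**Figure D1:**
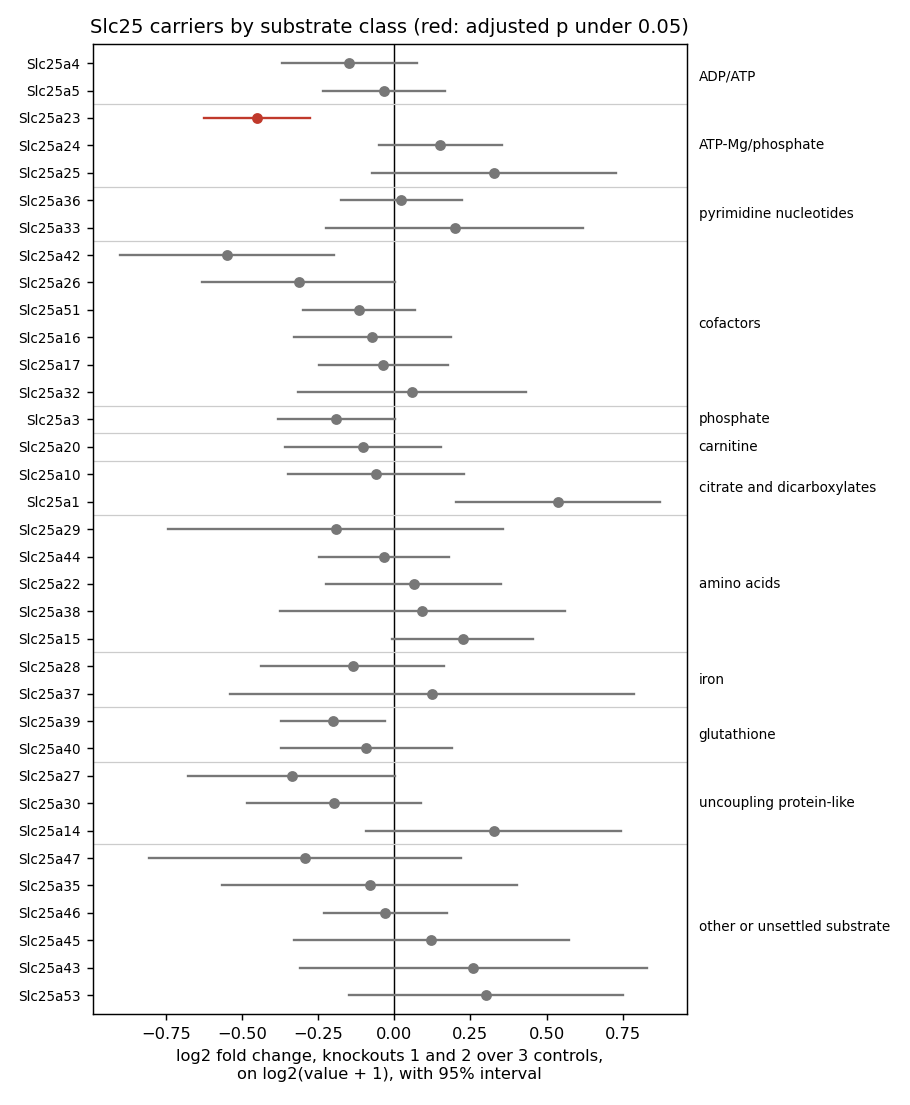
Log2 fold change of 35 carriers, knockouts 1 and 2 over the 3 controls, on the log2(value + 1) scale (x axis), grouped by substrate class (right); bars are 95% intervals from the limma fit. Slc25a23 (red) passed the threshold, and 25 of the 35 points lie within 0.25 of 0.

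The promoters of 3 carriers called in either comparison are shown, because HIF binds DNA at short sites built on the letters ACGTG or GCGTG. RefSeq windows on GRCm38.p6, from 250 bases before to 50 after the start of transcription, matched 27 of the 36 carriers by symbol. The 250 bases before the start are printed 5′ to 3′ on the strand of the gene, and capitals mark each ACGTG or GCGTG on either strand. The Slc25a1 window is chr16:17928220-17928469, that of Slc25a23 chr17:57059864-57060113 and that of Slc25a42 chr8:70212282-70212531, all on the minus strand. Of 2 windows for Slc25a23, the one whose start is that of the GENCODE gene is shown.
Slc25a1: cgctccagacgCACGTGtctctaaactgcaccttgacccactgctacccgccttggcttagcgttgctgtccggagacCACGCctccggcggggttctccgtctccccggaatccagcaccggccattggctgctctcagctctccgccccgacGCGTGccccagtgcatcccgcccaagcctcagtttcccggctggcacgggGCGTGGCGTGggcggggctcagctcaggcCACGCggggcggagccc
Slc25a23: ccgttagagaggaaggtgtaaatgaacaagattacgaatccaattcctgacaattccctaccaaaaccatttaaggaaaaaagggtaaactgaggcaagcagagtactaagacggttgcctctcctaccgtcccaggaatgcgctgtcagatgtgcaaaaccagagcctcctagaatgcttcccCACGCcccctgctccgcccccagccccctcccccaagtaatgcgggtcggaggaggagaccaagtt
Slc25a42: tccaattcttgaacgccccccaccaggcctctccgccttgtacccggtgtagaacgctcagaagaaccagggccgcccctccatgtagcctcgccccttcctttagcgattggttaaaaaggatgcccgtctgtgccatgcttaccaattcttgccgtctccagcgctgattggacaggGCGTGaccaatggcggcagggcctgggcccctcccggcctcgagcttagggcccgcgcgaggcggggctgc

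Over the 300 bases of the Slc25a1 window the letters stood at 7 separate places, the CACGTG at its far end counted once and 1 place lying 9 bases past the start. Among the 10396 genes of the table with a promoter window, 20 (0.192%) had a window with at least as many places, and the median was 1. Slc25a1 was singled out after its values were seen, and its window was rich in G and C (69.3%). The windows of Slc25a23 and Slc25a42 each held 1 place. Of the 27 matched carriers, 17 (63.0%) had either sequence in a window, beside 67.4% of the table's genes and 46.7% of all genes with a window. A match is a description of letters, not a binding site.

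The level of the carriers in control ventricles was led by those that serve ATP synthesis. Levels between genes are compared per kilobase of the gene's merged exons. Slc25a4, the ADP/ATP carrier of muscle (also called ANT1), stood at 491 ± 23.6 per kilobase (SD, n = 3) and made up 40.3% of the per-kilobase sum of the 36 carriers. Slc25a5 (ANT2), the ADP/ATP carrier of dividing and many other cells, followed at 335 ± 16.3, and Slc25a3, which brings phosphate for ATP synthesis and also copper into the matrix, at 131 ± 1.64. These 3 did not overlap with each other or with the carriers below them in the controls. Next came Slc25a39, a carrier needed for mitochondrial glutathione, at 43.9 ± 2.28, then the iron carrier Slc25a37 at 27.9 ± 7.70 and Slc25a24 at 22.4 ± 1.92, whose order is not separated by their spread. The NAD carrier Slc25a51 (19.3 ± 0.952), Slc25a23 (17.3 ± 0.374) and the pyrimidine nucleotide carrier Slc25a36 (16.9 ± 0.648) lay close together, and the neighbours Slc25a23 and Slc25a36 differed by less than their spread. The lowest levels were those of Slc25a29 at 0.557 and Slc25a35 at 0.526 per kilobase.

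**Figure D2:**
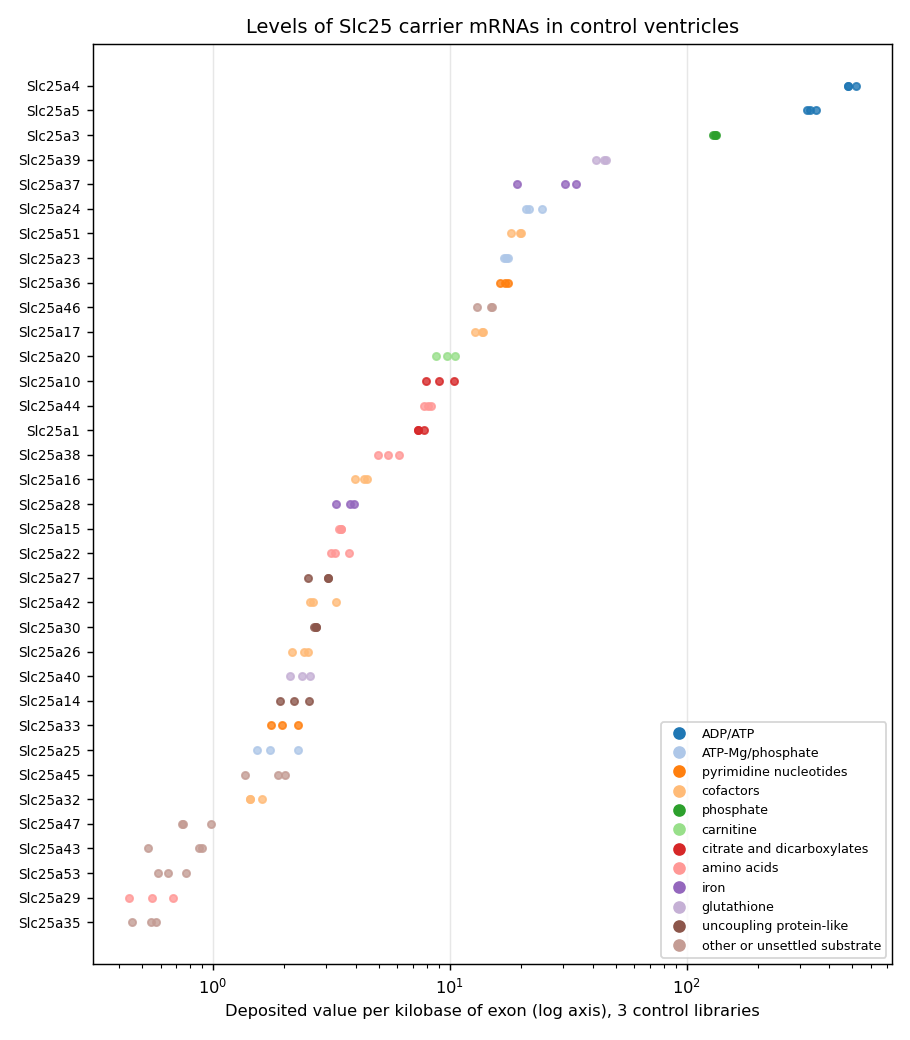
Level of 35 carriers per kilobase of merged exons in the 3 control libraries (log x axis, 1 point per library), ordered by control mean and coloured by substrate class. Slc25a4, Slc25a5 and Slc25a3 lie well to the right of the other carriers plotted.

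The exporters of ATP, the ADP/ATP carriers, did not pass the test. Slc25a4 (ENSMUSG00000031633, chromosome 8) had deposited values of 1220, 1124 and 1123 in controls 1 to 3, 1114 and 976 in the knockout pair, and 1086 in the library labelled knockout 3. All 3 libraries labelled knockout were below the lowest control, including the one with Vhl at the control level. The log2 fold change was -0.15 (95% interval -0.37 to 0.08, adjusted p = 0.50). Slc25a5 (chromosome X) was at 580, 546 and 527 in controls, at 573 and 505 in the knockout pair and at 563 in the library labelled knockout 3, so the groups overlapped. Its log2 fold change was -0.03 (95% interval -0.23 to 0.17). A processed pseudogene of Slc25a5 is annotated, so reads of that gene may be shared between copies and its level is uncertain. Slc25a4 made up 59.51%, 59.02% and 59.83% of the per-kilobase sum of the pair in controls 1 to 3. The share was 57.6% and 57.5% in the knockout pair and 57.4% in the library labelled knockout 3, so the libraries labelled knockout lay below the controls by about 2 percentage points, including the one with Vhl at the control level.

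The calcium-regulated carriers that exchange ATP-Mg for phosphate, and so set the size of the adenine nucleotide pool in the matrix, held the carrier with the smallest p. Slc25a23 (ENSMUSG00000046329, chromosome 17, 57043711 to 57059863 on GRCm38) was at 89.5, 93.5 and 91.1 in controls 1 to 3, at 63.4 and 70.0 in the knockout pair, and at 92.4 in the library labelled knockout 3. Both knockouts lay below every control, and the library labelled knockout 3 lay inside their range. Its log2 fold change was -0.45 ± 0.08 (SE; limma adjusted p = 0.018), so that it fell by 27.0% of the control mean. The call was lost without control 2 (adjusted p = 0.092), without control 3 (0.057) and without knockout 1 (0.11), and with limma without trend (0.081), while the log2 fold change stayed between -0.52 and -0.38 when any 1 library was left out. Exons of the gene overlap those of Gm17168 on the opposite strand, and without strand in the libraries their reads cannot be told apart. This limit is not particular to Slc25a23, as 11 carriers have exons that overlap another gene. Among them are Slc25a25 (Naif1), Slc25a26 (Lrig1), Slc25a35 (Rangrf) and Slc25a37 (Gm27223 and Gm31748). Slc25a23 lies on the chromosome of Nkx2-5, which carries the Cre allele, 30.2 Mb away. On chromosome 17, 13 of 650 genes were lower and 21 higher, where 1.24% and 3.01% of all genes were called, and the part of the allele's flanks in this value was not tested.

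The other carriers of the class did not pass the test. Slc25a24 was at 72.002, 74.2 and 84.3 in controls, at 86.2 and 84.3 in the knockout pair and at 75.8 in the library labelled knockout 3 (log2 fold change 0.15, 95% interval -0.05 to 0.35, adjusted p = 0.43). Slc25a25, a paralog that muscle cells make in response to activity, was at 12.1, 18.0 and 13.6 in controls, at 17.1 and 19.5 in the knockout pair and at 13.6 in the library labelled knockout 3 (0.33, interval -0.07 to 0.73). For both genes the groups overlapped. Of the per-kilobase sum of the 3 paralogs, Slc25a23 took 42.9%, 42.5% and 39.6% in controls, 30.5% and 32.8% in the knockout pair and 42.3% in the library labelled knockout 3. Slc25a24 took 52.0% to 56.5% in controls, 63.9% and 61.0% in the knockout pair and 53.5% in the library labelled knockout 3. These shares restate the values of the 3 genes, and a lower Slc25a23 by itself raises the share of the others.

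**Figure D3:**
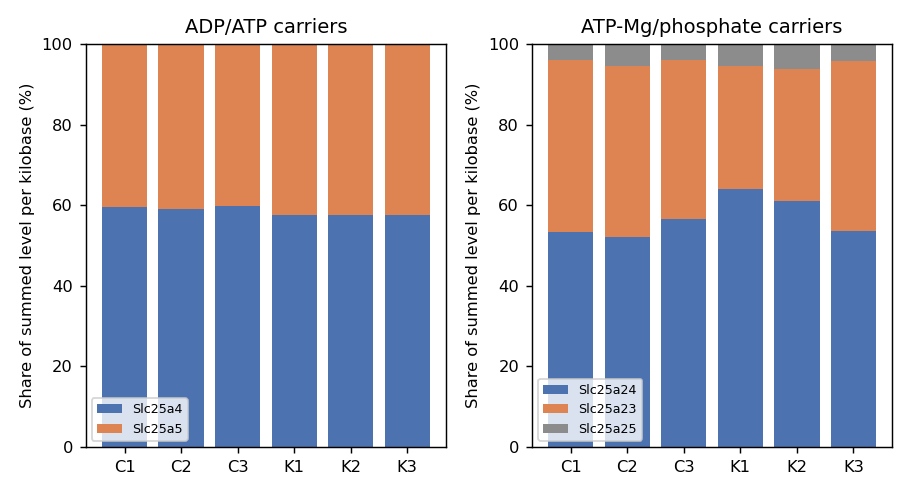
Share of each paralog in the summed level per kilobase (y axis, %) in controls (C1 to C3) and libraries labelled knockout (K1 to K3), for the ADP/ATP carriers (left) and the ATP-Mg/phosphate carriers (right). Slc25a4 takes 57.4% to 59.8% of its pair in every library, while Slc25a23 takes 39.6% to 42.9% in controls and 30.5% and 32.8% in K1 and K2.

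Carriers of pyrimidine nucleotides, which the matrix needs for its own DNA and RNA, did not pass. Slc25a36 was at 156, 168 and 164 in controls, at 179 and 152 in the knockout pair and at 174 in the library labelled knockout 3, so the knockout pair lay on either side of the controls. Slc25a33 was at 3.33, 3.69 and 4.3004 in controls, 4.45 and 4.47 in the knockout pair and 4.12 in the library labelled knockout 3 (log2 fold change 0.20 ± 0.18 SE, adjusted p = 0.64).

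Carriers of cofactors were the class with the most members. Of 7 measured members 6 had a fold change below 0, beside 7173 of all 13843 genes. Among these 6, the log2 fold changes of Slc25a51 (-0.12), Slc25a16 (-0.07) and Slc25a17 (-0.04) were small. In 3 of the 7 (42.9%) both of the knockout pair lay below every control, beside 17% of all genes. Slc25a42, a carrier of coenzyme A (chromosome 8, 70184340 to 70212305), had values of 19.7, 15.8 and 15.3 in controls, 10.3 and 12.1 in the knockout pair and 19.3 in the library labelled knockout 3. The knockout pair lay below the lowest control, and control 1 and the library labelled knockout 3 were the highest. The log2 fold change of -0.55 ± 0.15 missed the threshold with 5 libraries (adjusted p = 0.100), and it passed between littermates (-0.61, adjusted p = 0.037). Slc25a26, which brings in the methyl donor S-adenosylmethionine, was at 10.4 to 12.1 in controls, at 8.73 and 9.11 in the knockout pair and at 10.2 in the library labelled knockout 3 (log2 fold change -0.31 ± 0.14, adjusted p = 0.28). The most abundant of the class, Slc25a51, was at 108, 100.1 and 110 in controls, at 103 and 93.0 in the knockout pair and at 113 in the library labelled knockout 3. Slc25a17, whose product sits in peroxisomes, was at 36.2, 39.0 and 39.3 in controls, at 39.0 and 35.4 in the knockout pair and at 38.2 in the library labelled knockout 3. Both overlapped between the groups, as did Slc25a16, which is linked to coenzyme A (log2 fold change -0.07), and the folate and FAD carrier Slc25a32 (0.06).

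**Figure D4:**
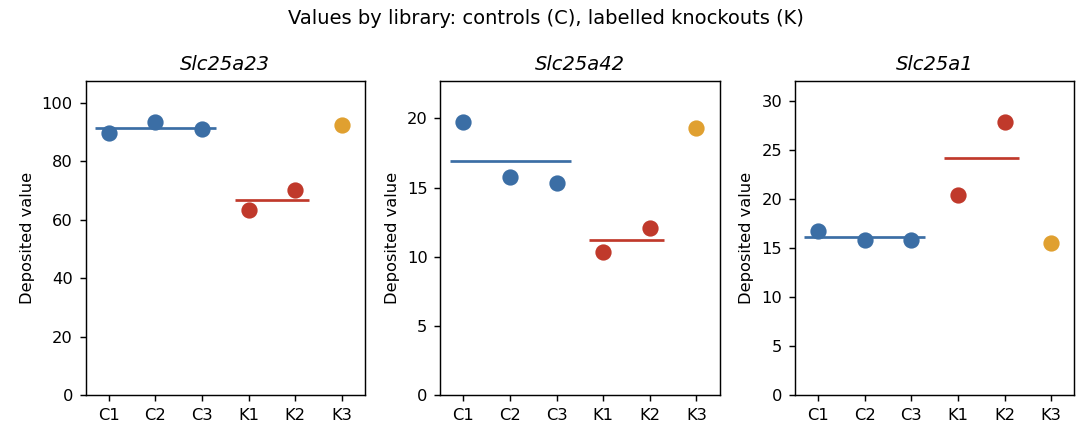
Deposited value (y axis, from 0) of 3 carriers called with 5 libraries or between littermates, in controls (C1 to C3) and libraries labelled knockout (K1 to K3); lines are the means of the controls and of K1 and K2. K1 and K2 lie below every control for Slc25a23 and Slc25a42 and above every control for Slc25a1, and K3 lies near the controls for each.

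Phosphate and carnitine enter through 1 measured carrier each. Slc25a3 (chromosome 10, 91116574 to 91124059) was at 734, 727 and 716 in controls, at 677 and 597 in the knockout pair and at 742 in the library labelled knockout 3. The knockout pair lay below the controls, and the log2 fold change was -0.19 (95% interval -0.38 to 0.00, adjusted p = 0.29). Slc25a20, which carries acylcarnitines in for fatty acid oxidation, was at 50.7, 42.5 and 46.9 in controls, at 47.1 and 39.8 in the knockout pair and at 39.0 in the library labelled knockout 3. Its groups overlapped, with a log2 fold change of -0.10 (interval -0.36 to 0.15, adjusted p = 0.70).

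Neither Slc25a1 nor Slc25a10, carriers of citrate and of dicarboxylates, passed with 5 libraries. Slc25a1 exports citrate, the source of cytosolic acetyl-CoA for making lipids (chromosome 16, 17925223 to 17928219). It was at 16.8, 15.9 and 15.8 in controls, at 20.4 and 27.9 in the knockout pair and at 15.5 in the library labelled knockout 3. The knockout pair lay above the controls and differed from each other more than the controls did. This was the highest fold change among the carriers, at 0.54 ± 0.14 on the log2 scale, and it missed the threshold with 5 libraries (adjusted p = 0.093) but passed between littermates (0.52, adjusted p = 0.048). Within litters, the log2 difference was 0.27 in litter 1 and 0.78 in litter 2. Slc25a10, which exchanges malate and succinate for phosphate, was at 36.1, 27.4 and 31.2 in controls, at 29.2 and 30.9 in the knockout pair and at 27.6 in the library labelled knockout 3, with overlap (log2 fold change -0.06). The difference between the 2 genes was not tested.

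None of the 5 amino acid carriers measured passed (limma; edgeR and DESeq2 called none either). Slc25a15, the ornithine carrier, was at 19.5, 19.2 and 19.6 in controls, at 23.4 and 22.3 in the knockout pair and at 21.2 in the library labelled knockout 3. All 3 libraries labelled knockout were above the controls (log2 fold change 0.22, 95% interval -0.01 to 0.46, adjusted p = 0.30). Slc25a44, a carrier of branched-chain amino acids, was at 28.8, 27.7 and 29.9 in controls, at 27.7 and 28.5 in the knockout pair and at 26.6 in the library labelled knockout 3. The glycine carrier Slc25a38 was at 15.1, 16.8 and 13.6 in controls, at 12.6 and 20.7 in the knockout pair and at 14.5 in the library labelled knockout 3. The knockout pair lay on either side of the controls (log2 fold change 0.09), and its order over libraries is set beside red cell markers below. The glutamate carrier Slc25a22 (0.06) and the carrier of basic amino acids Slc25a29 (-0.19) overlapped between groups.

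Iron enters through the mitoferrins, Slc25a37 (mitoferrin 1, the form of red cell precursors) and Slc25a28 (mitoferrin 2, the form of most other tissues). Slc25a37 (chromosome 14) was at 184, 204 and 116 in controls, at 133 and 238 in the knockout pair and at 191 in the library labelled knockout 3. No other carrier with a control mean above 20 varied as much among controls, and the groups overlapped (log2 fold change 0.12, 95% interval -0.54 to 0.79). The 13 erythroid markers measured, embryonic and adult globins among them, summed to 12212, 14519 and 6443 in controls 1 to 3, to 7099 and 15646 in the knockout pair and to 11515 in the library labelled knockout 3. Control 3 and knockout 1 were lowest and control 2 and knockout 2 highest for both the carrier and the markers. The same held for the glycine carrier Slc25a38. Per 1000 units of summed markers, Slc25a37 stayed between 14.1 and 18.8 in the 6 libraries, with overlap between the groups. By the same measure Slc25a38 ran from 1.16 to 2.12. The part of blood cells in the level of either carrier was not tested.

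Slc25a28 was at 14.8, 14.2 and 12.4 in controls, at 12.45 and 12.36 in the knockout pair and at 12.4 in the library labelled knockout 3, and so did not share the spread of Slc25a37. Of the per-kilobase sum of both mitoferrins, Slc25a28 took 10.0% to 14.6% in controls, 13.05% in knockout 1 and 7.69% in knockout 2. Heme and iron-sulfur synthesis are pathways that use mitochondrial iron and, for heme, glycine. Of their 14 measured genes 1 rose and 0 fell (limma, edgeR and DESeq2 alike), beside 3.01% higher and 1.24% lower over all genes in limma. At an unadjusted p under 0.05, limma had 2 higher and 3 lower in the list, beside 1349 and 1115 of all 13843 genes. The median log2 fold change of the list was -0.07. The gene that rose was Cpox, an enzyme of heme synthesis, from 53.6 ± 4.12 in controls (SD, n = 3) to 69.5 and 88.2 in the knockout pair (adjusted p = 0.046). With 1 library left out, the list had 1 higher gene without knockout 1 and 0 in the other 4 cases.

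**Figure D5:**
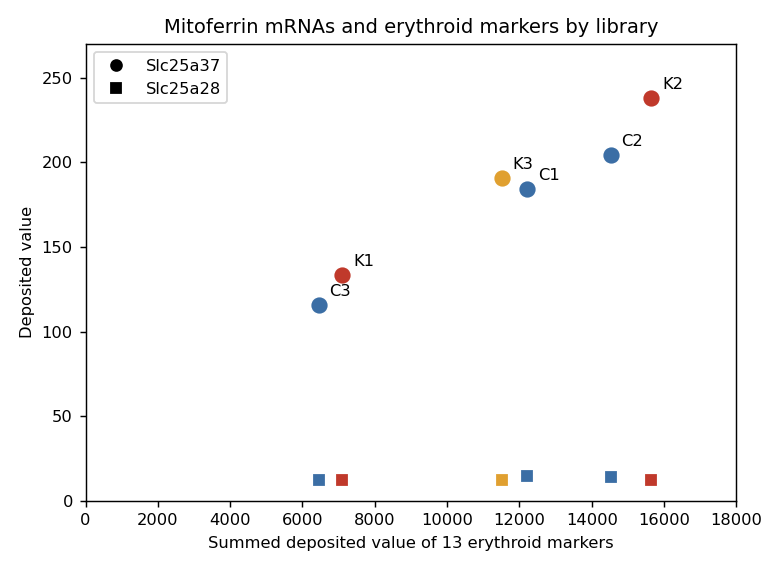
Deposited value (y axis) of Slc25a37 (circles) and Slc25a28 (squares) against the summed deposited value of 13 erythroid markers (x axis) in controls (C1 to C3, blue), K1 and K2 (red) and K3 (yellow). Slc25a37 runs from 116 in C3 to 238 in K2 along with the markers, while Slc25a28 stays between 12.4 and 14.8.

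Glutathione, the main thiol of the matrix, depends on Slc25a39 and its paralog Slc25a40. Slc25a39 was at 126, 123 and 114 in controls, at 103 and 107 in the knockout pair and at 114 in the library labelled knockout 3, whose value lay just above the lowest control. The knockout pair lay below the controls, with a log2 fold change of -0.20 (95% interval -0.37 to -0.03) that failed the correction over all genes (adjusted p = 0.21). Slc25a40 was at 17.6, 19.9 and 21.6 in controls, at 18.1 and 18.7 in the knockout pair and at 22.8 in the library labelled knockout 3. It held 5.10% ± 0.736 of the per-kilobase sum of the pair in controls and 5.46% and 5.41% in the knockout pair.

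Of the carriers related to uncoupling proteins, Slc25a27 was at 12.0, 12.0 and 9.86 in controls, at 8.97 and 8.41 in the knockout pair and at 12.55 in the library labelled knockout 3. The knockout pair lay below the controls (log2 fold change -0.34 ± 0.15, adjusted p = 0.28). Slc25a27 is the other carrier on chromosome 17, 16.8 Mb from Nkx2-5. Slc25a30 was at 12.43, 12.17 and 12.48 in controls and at 10.35 and 10.95 in the knockout pair (-0.20), with 12.2 in the library labelled knockout 3. Slc25a14 lay above the controls without passing, with 4.55 to 5.98 in controls, 7.52 and 6.13 in the knockout pair and 6.04 in the library labelled knockout 3 (0.33 ± 0.18, adjusted p = 0.41). Among the 6 carriers with an unsettled substrate, or that sit elsewhere, Slc25a46, an outer membrane protein tied to mitochondrial shape, was at 81.5, 70.9 and 81.1 in controls, at 78.3 and 74.0 in the knockout pair and at 85.3 in the library labelled knockout 3. Slc25a53 was at 4.66, 6.13 and 5.14 in controls, 5.74 and 7.89 in the knockout pair and 7.42 in the library labelled knockout 3. The fold changes of these 6 ran from -0.29 for Slc25a47 to 0.30 for Slc25a53, and Slc25a35, Slc25a43 and Slc25a45 lay between, each with control values under 6.

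Without a test, the knockout pair lay above every control for 4 carriers (Slc25a1, Slc25a14, Slc25a15 and Slc25a33) and below every control for 10, where 18.1% and 17% of all genes did so. The 36 carriers summed to 3759, 3630 and 3516 in controls, to 3490 and 3297 in the knockout pair and to 3631 in the library labelled knockout 3. Slc25a3, Slc25a4 and Slc25a5 together made up 66.0% to 67.4% of that sum in controls, 67.7% and 63.0% in the knockout pair and 65.9% in the library labelled knockout 3. In that library 17 carriers lay inside the range of the controls, 11 above it and 8 below, and 56.1% of all genes lay inside. All 3 libraries labelled knockout lay below the controls for Slc25a4, Slc25a26 and Slc25a47 and above them for Slc25a14 and Slc25a15, where 4.65% and 5.13% of all genes did so.

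Proteins that bring the carriers to the inner membrane through the TIM22 route did not pass either. Of the 13 genes of that list limma called 0, and edgeR and DESeq2 called 0 as well. In limma 2 had an unadjusted p under 0.05, beside 2464 of all 13843 genes, and the median log2 fold change was -0.08. The fold change was below 0 for 10 of the 13, beside 7173 of all genes. Without a test, the knockout pair lay below every control for 6 and above for 2, where 17% and 18.1% of all genes did so. Of 24 other transport proteins of mitochondrial membranes 2 rose, 1 fell and 21 did not pass, beside 3.01% higher and 1.24% lower over all genes, with a median log2 fold change of -0.04. Vdac1, the main pore of the outer membrane, rose from 568 ± 12.98 in controls (SD, n = 3) to 785 and 695 in the knockout pair (adjusted p = 0.047), and was at 579 in the library labelled knockout 3. Tspo, an outer membrane protein, rose from 19.2 ± 1.06 to 30.4 and 26.4 (adjusted p = 0.040). Mpc2, a subunit of the pyruvate carrier, fell from 42.9 ± 0.158 to 34.2 and 29.2 (adjusted p = 0.049). None of these 3 calls held when any 1 library was left out.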

How the data were processed

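Per the submitters' processing notes, the tools were CASAVA 1.8.2, cutadapt 1.3 and RSEM 1.2.3 on GRCm38. The sources used here name neither annotation nor gene filter. The authors deposited a normalized signal, and every value was a whole multiple of 1 step per library (tolerance 0.01 reads). The step equalled the CPM that a read is worth on edgeR's effective library size. Each gene reached 1 in 3 or more libraries. GENCODE M21 gave a symbol, coordinates and merged exon length to 13675 genes, and 168 had none.

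The main test was limma 3.58.1 with trend (R 4.3.3) on log2(value + 1), 3 controls against knockouts 1 and 2, with Benjamini-Hochberg adjustment over 13843 genes. Alternatives used edgeR 4.0.16 and DESeq2 1.42.0 on recovered reads, and scripts were tested on simulated data. Litters in the labels pair libraries 1 and 2, whose deviations from the group means correlated at 0.32 and 0.24 over genes. The deviations of knockouts 1 and 2 from their own mean are equal and opposite. Both correlations therefore use the same knockout contrast and are not separate evidence. The main fit did not use the pairing by litter. Its p-values rest on the spread between embryos, with 3 residual degrees of freedom, and on the spread pooled over genes. Leaving out the library labelled knockout 3 follows its Vhl value.

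Members and lists were chosen with earlier results of these data known. The counts cover all 36 carriers, of which 1 is not reported here and is left out of the figures of single carriers, which plot 35. Values per library are given for other carriers called with 5 libraries or between littermates, for the 2 of each class with the highest mean deposited value over the 6 libraries and for paralog pairs.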

Additional observations from a re-analysis of the deposited data

How the results depend on the processing

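No carrier called by any of the 14 alternatives changed direction, and 21 of 499 pairs of carrier and alternative changed sign without a call, all in carriers whose log2 fold change was at most 0.124 in size. With the filter at a mean of 5, 31 of the 36 carriers were tested. The count of 2 carriers lower became 1 with DESeq2 and 1 with DESeq2's size factors, and 0 with limma without trend or with all 6 libraries, and it ran from 0 to 1 when 1 library was left out. With litter as a replicate block (the pairing of litters 1 and 2), 1 carrier was higher in place of 0, and 681 genes were higher and 444 lower in place of 416 and 172. The block also gave 2 genes lower in the list of other mitochondrial transport and 1 in the heme and iron-sulfur list, and changed no other call of a carrier than those of Slc25a1 and Slc25a42. Over all genes, limma without trend gave 235 higher and 82 lower, all 6 libraries gave 0 and 0, and DESeq2 gave 276 lower. Leaving out 1 library gave 146 to 297 higher (lowest without knockout 1) and 44 to 90 lower. In the list of other mitochondrial transport the 2 higher and 1 lower became 0 and 0 without trend, with all 6 libraries and in each case with 1 library left out, while the filter at a mean of 5 gave 2 lower and DESeq2's size factors gave 0 lower. The 1 higher gene of the heme and iron-sulfur list became 0 without trend and with all 6 libraries, and was 0 to 1 with 1 library left out. With fewer libraries in the fit there is less to test on, and the cause of the other shifts was not tested. Low carriers such as Slc25a29 and Slc25a35 rest on few reads, and their intervals are wide.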
